A study of Mus musculus with 4 samples.

Results

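The basal and non-keratinizing epithelial cells of the fetal mouse penis were examined in single-cell mRNA libraries of E16.5 male genitalia. These cells were chosen by measured values. A kept barcode had more than 1000 UMIs (unique molecular identifiers, each marking 1 captured mRNA molecule), at most 25% of its UMIs from mitochondrial genes and at most 25% from *Hba-* and *Hbb-* hemoglobin genes. Of the kept barcodes, those with at least 3 of *Epcam*, *Cdh1*, *Krt5*, *Krt14*, *Krt15* and *Trp63* detected and at most 1 of *Krt1*, *Krt10*, *Lor* and *Krtdap* detected were taken as basal cells. The rule found 367 such cells among 36423 kept cells and 47040 barcodes in all. Kept cells with at least 3 of the 6 epithelial markers and 2 or more of the 4 keratinizing markers (282 cells) are called keratinizing cells here, and the remaining 35774 kept cells are called other cells.

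The study asked what the loss of *Nr5a1*-lineage cells does to the penis at the time of urethra closure. There were 2 control libraries (DTA-), which carry the *Rosa-LSL-DTA* allele (+/f) without the *Nr5a1-Cre* transgene and have the genotype label WT, and 2 ablated libraries (DTA+), which carry *Nr5a1-Cre* (Tg/+) and *Rosa-LSL-DTA* (+/f), so that Cre switches on diphtheria toxin A in cells of the lineage. All embryos were male, at E16.5, and carried the DTA allele, and the sires of the cross also carried *Rosa-LSL-tdTomato*. The paper's methods also list *Rosa-LSL-tdTomato* (+/f) in the genotype of the ablated embryos, while its results give the genotypes of both groups without it. The model has limits as a model of the penis alone, because *Nr5a1-Cre* is also active in the testes and the adrenal glands, and the sources used here do not say whether a library held 1 penis or several. The p-values below measure the spread between libraries, which may be partly technical.

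A stratified epithelium is renewed from its basal layer, whose cells divide, express the keratin pair *Krt5* and *Krt14* under the transcription factor *Trp63*, and attach to the basement membrane through hemidesmosomes. In skin, daughter cells leave this layer, switch to *Krt1* and *Krt10* and keratinize. The epithelium of the fetal penis joins the epidermis of the prepuce to the endoderm-derived urethral lining, which expresses simple-epithelial keratins and, in its bladder-like parts, uroplakins.

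The libraries, given throughout in the order DTA- replicate 1, DTA- replicate 2, DTA+ replicate 1 and DTA+ replicate 2, held 12580, 11607, 11510 and 11343 barcodes and 73577028, 53654435, 50794318 and 50779551 UMIs. They gave 98, 74, 119 and 76 basal cells, with 778441, 491709, 908896 and 644593 UMIs in all and medians of 6662, 5031.5, 5113 and 5762 UMIs per cell. The DTA- replicate 1 library was the deepest both overall and by the median per basal cell. Median depth was 17026, 12387.5, 10372 and 8639.5 UMIs in keratinizing cells, so that a keratinizing cell had more chance than a basal cell to show any given marker. No basal barcode was shared between libraries. Doublets were not removed, and no doublet caller was run.

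Basal cells were 1.11%, 0.826%, 1.35% and 0.772% of the kept cells (exact 95% binomial intervals 0.902 to 1.35%, 0.649 to 1.04%, 1.12 to 1.62% and 0.609 to 0.966%, which cover counting error only). The DTA- values lay between the DTA+ values, with means of 0.968% ± 0.201 in DTA- and 1.06% ± 0.411 in DTA+ (SD, n = 2 each; exact two-sided permutation p = 1). With 2 libraries per genotype this exact permutation test cannot go below p = 0.33. Among the epithelial cells, basal and keratinizing together, basal cells made up 48.3%, 58.7%, 56.7% and 69.1%, and the genotypes overlapped.

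The marker genes that chose the cells are described without a test. Levels are UMIs of a gene per 1000000 UMIs of the basal cells of a library (CPM). *Krt14* was at 1798, 1540, 1798 and 1412 CPM and *Krt5*, its partner keratin, at 926, 966, 977 and 701 CPM. *Krt15*, a keratin of resting basal cells, was at 787, 647, 1172 and 2305 CPM and varied most among the 6. A single cell held 678 of the 1486 *Krt15* UMIs of DTA+ replicate 2, and without the highest cell of each library the levels were 740, 601, 1095 and 1359 CPM. *Trp63* was at 135, 209, 224 and 225 CPM, *Epcam*, an adhesion molecule of epithelia, at 378, 338, 442 and 479 CPM, and *Cdh1*, which encodes E-cadherin, at 47.5, 63.1, 70.4 and 86.9 CPM. Over all libraries, *Krt14* was detected in 97.0% of basal and 2.12% of other cells, *Krt5* in 93.2% and 1.51%, and *Epcam* in 65.9% and 0.85%. Other cells had a median depth of 5417, 4357, 3779 and 3760 UMIs. Their low shares of these markers were partly fixed by the rule, which left cells with few epithelial markers in this class. The shares in other cells are therefore no measure of a background of free RNA or mixed barcodes, which was not tested. *Krtdap*, of which the rule allows detection, had a UMI in 29.2% of basal cells and in 1.46% of other cells.

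Cells just inside and just outside the rule differed in degree. In DTA- replicate 1, the 34 cells with exactly 3 epithelial markers had 480 CPM of *Krt5* and 933 CPM of *Krt14*, and 38.2% of them had UMIs of 2 or more of the mesenchymal genes *Pdgfra*, *Pdgfrb*, *Prrx1*, *Twist1* and *Twist2*. The 33 cells with exactly 2 epithelial markers, left out by the rule, had 138 CPM of *Krt5* and 250 CPM of *Krt14*, and 60.6% of them had such mesenchymal UMIs. The 64 cells with 4 or more markers had 1098 CPM of *Krt5* and 2132 CPM of *Krt14*, with mesenchymal UMIs in 10.9%. The step from 4 or more to exactly 3 markers was smaller in the other libraries, from 19.6% to 21.7% in DTA- replicate 2, from 15.4% to 21.4% in DTA+ replicate 1 and from 14.3% to 25% in DTA+ replicate 2. Of the cells with exactly 2 markers, 46.2%, 64.6% and 55.6% in these libraries had mesenchymal UMIs.

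Genes that the rule did not use gave the same cells a stratified basal profile. *Krt17*, a keratin of embryonic and activated stratified epithelium, was at 663, 850, 795 and 709 CPM in basal cells and below 5 CPM in other cells of every library. *Lgals7*, which encodes the stratified-epithelial galectin-7, was at 1639, 1623, 2046 and 1928 CPM, and *Col17a1*, a transmembrane collagen of hemidesmosomes, at 171, 232, 211 and 169 CPM. The 15 genes with the largest ratio of basal over other cells (log2 of CPM + 10) also included *Perp* and *Dsp* of epithelial cell contacts, *Fxyd3*, *Sfn*, *S100a14*, *Lmo1* and the transcription factor *Tfap2b*. Of 16 stratified basal genes listed, 14 were higher in basal than in other cells of all 4 libraries, with a mean log2 ratio of the summed list of 2.18 ± 0.50 (SD over n = 4 libraries). All of these contrasts follow in part from how the cells were chosen and were not tested.

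Compared with keratinizing cells, basal cells had lower levels of some differentiation genes: 5 of 18 epidermal differentiation genes listed were lower in basal cells of all 4 libraries and none was higher in all 4. *Krt1* and *Krt10* led that contrast, as the rule fixed, and among genes outside the rule *Ly6d*, *Calm4*, *Dmkn*, *Krt9*, *Capns2* and *Them5* were lower in basal cells of all 4 libraries. The stratified basal list was not higher in basal than in keratinizing cells: 11 of its 16 genes were lower in basal cells of every library, with a mean log2 ratio of -0.54 ± 0.17. Genes of the S and G2/M phases more often ran the other way. Of these, 7 of 15 S phase and 12 of 16 G2/M genes were higher in basal than in keratinizing cells of all 4 libraries. None was lower in all 4. The summed S phase list had log2 ratios of 0.42, 0.41, -0.0011 and 0.95 by library, with no clear difference in DTA+ replicate 1. The share of all genes with the same order in all 4 libraries is not given here, so all such counts between classes are descriptions only.

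**Figure D1:**
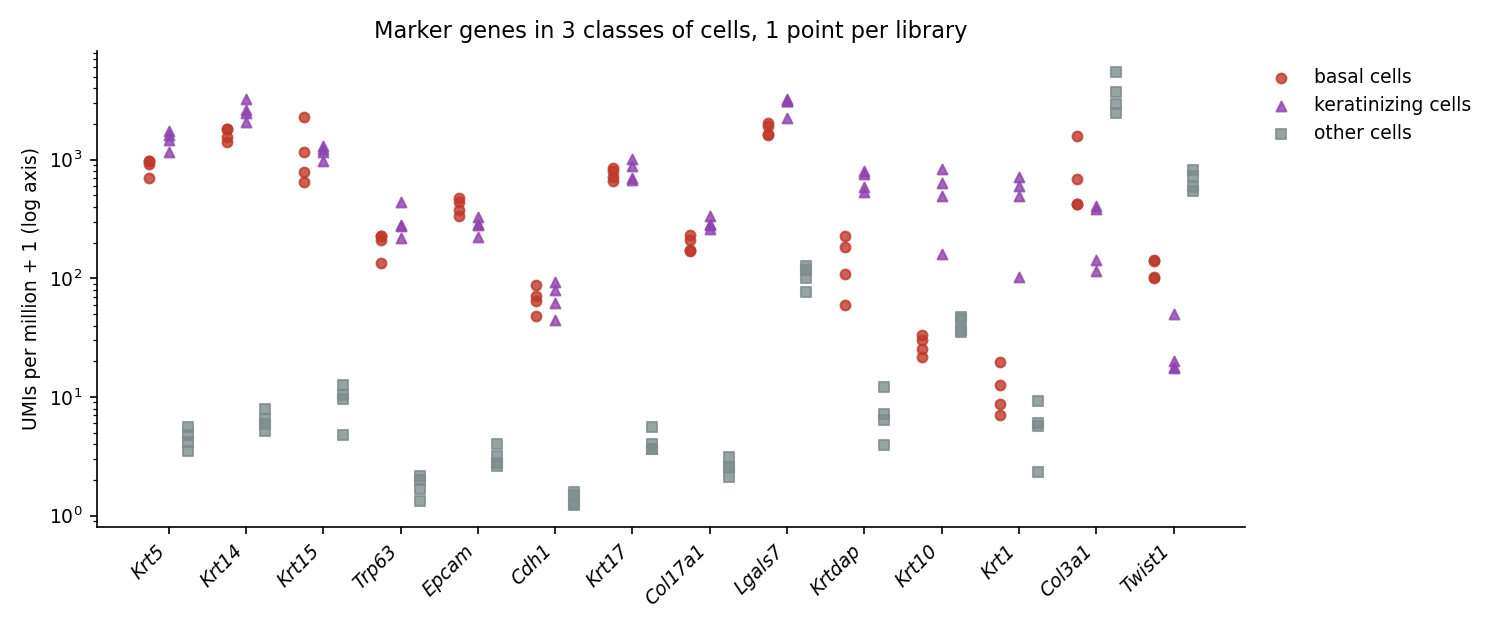
Level of 14 marker genes (CPM + 1, log axis) in basal, keratinizing and other kept cells, with 1 point per library and class. *Krt14* lay between 1412 and 1798 CPM in basal cells and near the foot of the axis in other cells, while *Krt1* and *Krt10* separated the keratinizing cells and *Col3a1* the other cells.

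The label did not hold for all cells. Of the 98, 74, 119 and 76 basal cells, 20, 15, 20 and 13 had UMIs of 2 or more of the 5 mesenchymal genes (20.4%, 20.3%, 16.8% and 17.1%), against 83.8%, 80.5%, 82.7% and 84.2% of other cells. The 10 listed mesenchymal genes together were at 2326, 4997, 3838 and 1772 CPM in basal cells, with *Dcn* the most abundant, and all 10 were lower in basal than in other cells of every library. They were nevertheless higher in basal than in keratinizing cells for 9 of 10 genes in every library. Of other cell types, the 6 Merkel cell genes summed to 181, 140, 93.5 and 129 CPM, nearly all of it *Isl1*, which was at 343, 275, 341 and 416 CPM in other cells, while *Atoh1*, *Pou4f3* and *Insm1* had 0 UMIs. *Pmel*, *Mlana* and *Tyrp1* of melanocytes had 0 UMIs, the 6 endothelial genes summed to 6, 85, 7 and 14 CPM, and the 6 immune genes to 81, 134, 7 and 96 CPM. In DTA- replicate 1, a single barcode held 1281 of the 1287 UMIs of 5 mast cell genes (*Cma1*, *Cpa3*, *Tpsb2*, *Mcpt4* and *Srgn*).

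The 367 cells fell into 7 clusters, computed without the 10 genes of the rule. Cluster 1 (98 cells; 28, 29, 21 and 20 by library) was led by *Slc5a7*, *Rxfp1*, *Sema3d*, *Olfm1*, *Igfbp5*, *Ntm* and *Tnc*. *Igfbp5*, a secreted binding protein of insulin-like growth factors, was at 1478 CPM there and was detected in 96.9% of its cells. *Rxfp1*, a relaxin receptor, was at 166 CPM there and between 0 and 27.7 CPM in the other 6 clusters. *Col17a1* reached 347 CPM in it, the highest of the 7, together with *Itgb4* and *Itga3* of the hemidesmosome and its neighbourhood. These 3 were the enriched markers of the stratified basal list, which gave 0 of the 10 leading genes. No other list gave any of them, and cluster 1 stays unnamed.

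Cluster 2 (75 cells; 24, 17, 21 and 13) was led by *Col1a2*, *Twist1*, *Dlk1*, *Col1a1* and *Col3a1*, and 63 of its cells had 2 or more of the 5 mesenchymal genes. All 10 mesenchymal markers were enriched there, *Krt5* was at 514 CPM and *Krt14* at 912 CPM, and its median depth was 8199 UMIs. These leading genes go against an epithelial label. Whether its barcodes hold a pair of cells, free RNA or cells that express both programs was not tested, and the comparison of genotypes without the cells with 2 or more mesenchymal genes is given beside the main one.

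Cluster 3 (62 cells; 14, 7, 35 and 6) was appendage placode-like. Placodes are local thickenings from which hair follicles and glands start, and 7 of 10 placode markers were enriched: *Edar*, *Lhx2*, *Dkk4*, *Wnt10b*, *Fgf20*, *Bmp2* and *Lef1*. In that order they were found in 9, 10, 4, 23, 5, 13 and 34 of the 62 cells, so the name rests on a part of the cells. Also enriched were 5 of 10 stratified basal and 3 of 8 keratinizing markers. These gave 0 of the 10 leading genes, and the placode markers gave 2. Its leading genes included *Wnt10b*, a Wnt ligand, and *Ptch1*, at 328 CPM, which encodes a receptor of hedgehog and is also a usual target gene of that pathway. *Krt14* reached 3108 CPM there. *Dkk4* was found in 4 of its cells, with 136 of its 181 UMIs in 1 cell of DTA+ replicate 1. Of its 62 cells, 35 came from DTA+ replicate 1, and the other DTA+ library gave 6, so the size of the cluster did not go with genotype.

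Cluster 4 (54 cells; 16, 12, 18 and 8) had a median of 2798 UMIs and was led by widely expressed genes such as *Magohb* and *Chchd4*. Cluster 5 (32 cells; 4, 2, 9 and 17) had the deepest cells, with a median of 13158.5 UMIs, and its leading genes included *Scd1*, a fatty acid desaturase, *Mgst1*, *Soat1*, which esterifies cholesterol, *Acsl4* and the keratin *Krt79*. For 2 of these the highest cell of the gene, from DTA+ replicate 2, decided the level. It held 200 of the 207 *Scd1* UMIs or 168 of the 176 *Soat1* UMIs of the cluster, and without it *Scd1* was at 17.4 in place of 476 CPM and *Soat1* at 19.8 in place of 405 CPM. *Mgst1* was found in 29 of the 32 cells, at 1140 CPM, or 615 CPM without its highest cell, against 12.2 to 204.5 CPM in the other clusters. *Acsl4* was found in 18 cells and *Krt79* in 20. Of the placode markers, *Sox9* and *Pthlh* were enriched in it, at 232 and 133 CPM, and *Lhx2* was found in 46.9% of its cells, against 16.1% in cluster 3. The level of *Lhx2* ran the other way, at 52.9 CPM in cluster 5 and 122 CPM in cluster 3. No list had 3 enriched markers in cluster 5, and it stays unnamed. Cluster 6 (24 cells; 8, 6, 6 and 4) was cycling cell-like, with *Ube2c*, *Nusap1*, *Ccnb1*, *Aurkb* and *Birc5* among its leading genes.

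Cluster 7 (22 cells; 4, 1, 9 and 8) held most of the UMIs of most urethral and mucosal genes. It was led by *Krt4*, *Krt19*, *Sprr1a*, *Upk1b*, *Krt6a*, *Asprv1*, *Hopx*, *Krt7*, *Cldn3* and *Anxa1*, and 11 of 14 urethral markers and 5 of 7 periderm and mucosal markers were enriched. Both lists gave 3 of its 10 leading genes, so it is named here by its leading keratins, as the *Krt4*/*Krt19* cluster, and not as a cell type.

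**Figure D2:**
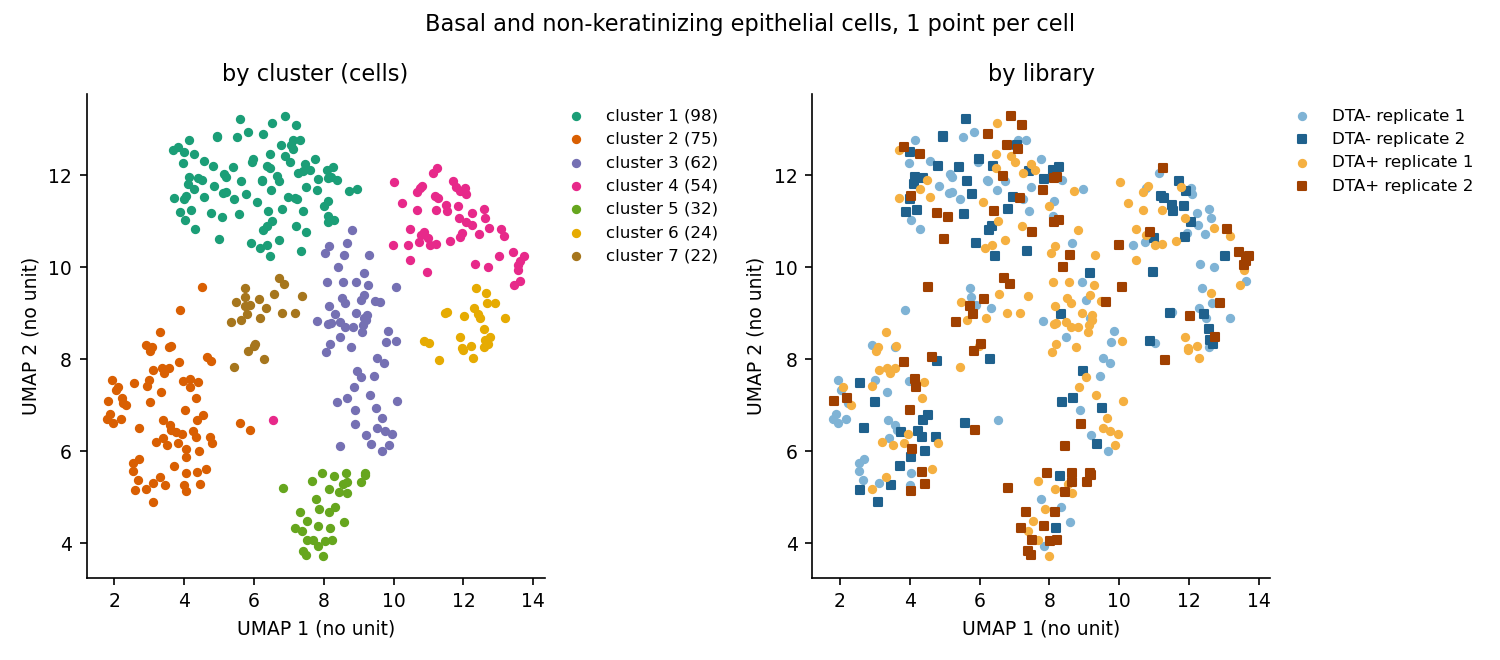
UMAP of the 367 basal cells (axes without unit, 1 point per cell), coloured by cluster on the left and by library on the right. All 7 clusters held cells of every library, with 35 of the 62 cells of cluster 3 from DTA+ replicate 1 and 17 of the 32 cells of cluster 5 from DTA+ replicate 2.

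Urethral against epidermal traits were then set side by side within the basal cells. Across the 367 cells, 96.4% of all *Krt19* UMIs, 99.0% of *Krt4*, 98.6% of *Upk1b*, 95.8% of *Foxa1*, 95.6% of *Krt6a*, 86.1% of *Krt7*, 81.4% of *Krt8* and 100% of *Psca* UMIs were in the 22 cells of the *Krt4*/*Krt19* cluster. Foxa1 is a pioneer transcription factor of endoderm-derived epithelia, Upk1b is a uroplakin of the bladder surface, and Psca is a small anchored surface protein of urogenital epithelium. Of the 22 cells, 20 had a UMI of *Krt19*, 18 of *Krt8*, 16 of *Krt18*, 14 of *Krt7*, 10 each of *Krt4* and *Krt6a*, and 9 each of *Upk1b*, *Cldn4* and *Foxa1*. *Foxa2* had a UMI in 1 of the 22 cells. In all, 21 of the 22 cells had 2 or more of the 14 urethral genes, as did 11 cells of cluster 1, 8 of cluster 2 and 6 of cluster 3. Levels in this cluster rested on few cells: without the highest cell of the gene *Krt4* went from 3186 to 744 CPM, *Upk1b* from 905 to 314 CPM and *Krt19* from 2182 to 1533 CPM, while 94.3%, 94.6% and 92.9% of the remaining UMIs were still there.

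The same 22 cells were lower in some genes of the epidermal side of the list and not in others. *Krt14* was at 360 CPM in the *Krt4*/*Krt19* cluster, against 912 to 3108 CPM in the other 6 clusters, and *Krt5* was at 490 CPM. *Tfap2b* was at 6.2 CPM, against 83.0 to 479 CPM elsewhere, and *Lgals7* at 514 CPM, against 877 to 2875 CPM. *Igfbp2*, a binding protein of insulin-like growth factors, was at 149 CPM in it, against 183 to 674 CPM. *Krt17*, at 545 CPM, was within the range of the other clusters, 341 to 1322 CPM. Also within their range were *Col17a1* (143 CPM), *Dst* (211 CPM), *Itga6* (86.8 CPM), *Itgb4* (62.0 CPM), *Itga3* (24.8 CPM) and *Trp63* (143 CPM). *Krt15* was higher: it was detected in all 22 cells and was at 7258 CPM, and 33.6% of all *Krt15* UMIs came from them. A single cell of DTA+ replicate 2 held 678 of the 1171 *Krt15* UMIs of the cluster, which was at 4421 CPM without it, still above the 357 to 1612 CPM of the other clusters. *Epcam*, at 1023 CPM, and *Cdh1*, at 341 CPM, were highest there too. *Mki67* and *Top2a*, genes of dividing cells, were both at 24.8 CPM in it.

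*Shh*, a secreted signal that the urethral plate makes and that placodes also make, was split between clusters. It was at 62.0 CPM in the *Krt4*/*Krt19* cluster, where 6 cells had a UMI, and only 12.8% of its UMIs were there. The placode-like cluster had 104.5 CPM in 12 cells, but 1 cell of DTA- replicate 2 held 30 of its 60 UMIs, and without that cell the level was 58.3 CPM, near that of the *Krt4*/*Krt19* cluster. *Krt18*, a simple-epithelial keratin, was also spread more widely, with 56.7% of its UMIs in the *Krt4*/*Krt19* cluster.

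Some urethral and mucosal genes were higher in both DTA+ sums of the basal cells, and single cells decided much of this. The 14 urethral genes together were at 132, 824, 548 and 2554 CPM, and the genotypes overlapped. *Krt19* was at 27.0, 63.1, 70.4 and 386 CPM. Both DTA+ values were above both DTA- values, but DTA+ replicate 1 was close to DTA- replicate 2, and 1 cell gave 181 of the 249 UMIs of DTA+ replicate 2. *Krt4*, a keratin of wet mucosal surfaces, was at 3.85, 2.03, 47.3 and 732 CPM, and 1 cell gave 431 of the 472 UMIs of DTA+ replicate 2. *Psca* was at 0, 447, 265 and 1334 CPM, *Krt7* at 21.8, 167, 30.8 and 149 CPM and *Krt13* at 0, 207, 8.8 and 309 CPM, so that for these 3 genes the genotypes overlapped.

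Of the 14 urethral genes, 8 had enough counts to be tested between the genotypes, and 0 passed (edgeR's quasi-likelihood test on counts summed per library, Benjamini-Hochberg adjusted p under 0.05), while 0.105% of all 7630 genes tested passed. Unadjusted p in edgeR was under 0.05 for 5 of the 8, and for 558 of all 7630 genes tested. For 5 of them both DTA+ libraries were above both DTA- libraries, a pattern seen in 21.7% of all genes tested, and the list's median log2 fold change was 1.93 beside 0.01 over all genes. Outside the *Krt4*/*Krt19* cluster 0 of the 8 genes had both DTA+ libraries above both DTA- libraries, an order that 19.7% of all genes tested had there, and *Krt19* was at 5.3, 4.1, 1.2 and 10.7 CPM. That cluster holds most UMIs of most urethral genes, so few were left to order. The 10 periderm and mucosal genes, of which 6 could be tested, gave 0 calls. In both lists some genes, such as *Upk1b*, *Krt4* and *Krt6a*, passed the filter on low counts only through the DTA+ libraries, and in DTA+ replicate 2 a single cell held most UMIs of each of these 3, so the median and the signs of the genes tested support nothing.

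To set the libraries at equal depth, each cell was thinned to 1000 UMIs. The share of basal cells with 2 or more of the 14 urethral genes was then 3.06%, 2.70%, 3.36% and 3.95%, which is 3 of 98, 2 of 74, 4 of 119 and 3 of 76 cells. The means were 2.88% ± 0.254 in DTA- and 3.65% ± 0.414 in DTA+ (SD, n = 2 each; exact two-sided permutation p = 0.33, the smallest possible). Without thinning, the shares were 9.16% ± 1.48 and 15.9% ± 3.52. In 3 alternatives the genotypes overlapped: with 3 or more urethral genes (exact permutation p = 0.67), without cells with mesenchymal RNA (p = 0.67) and with fewer than 7500 UMIs (p = 1). In other cells, thinned, the share did not exceed 0.158% in any library. In thinned keratinizing cells it was 3.81%, 1.92%, 5.49% and 8.82%, so that such cells were not particular to the basal class. Without thinning, and with deeper keratinizing cells, *Krt7* had a UMI in 42.6% of keratinizing and 11.7% of basal cells, and *Krt19* in 20.6% and 8.45%.

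The share of cells with cell cycle genes was lower in both DTA+ libraries in all 3 classes. Among basal cells thinned to 1000 UMIs, 37.8%, 39.2%, 25.2% and 28.9% had 3 or more of 31 S phase and G2/M genes detected. The genotypes did not overlap, with means of 38.5% ± 1.01 in DTA- and 27.1% ± 2.64 in DTA+ (SD, n = 2 each; exact two-sided permutation p = 0.33, the smallest possible). The share was 36.2%, 30.8%, 23.1% and 14.7% in keratinizing cells and 18.8%, 16.6%, 11.3% and 9.15% in other cells. In each class both DTA+ libraries were below both DTA- libraries, and whether the difference itself differed between classes was not tested. Among basal cells with fewer than 7500 UMIs the shares were 30.2%, 37.7%, 18.1% and 30.4%, and the genotypes overlapped (exact permutation p = 0.67). With 4 or more genes asked for, the difference narrowed from -11.4 to -4.80 percentage points (25.4% and 20.6%). Detection of these genes is not a phase call.

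By gene, the S phase list was lower on balance in DTA+, without calls. Of the 14 S phase genes tested, 13 had a fold change below 0 (49.1% of all genes tested did), 8 had both DTA+ libraries below both DTA- libraries (16.2% of all genes tested), and 0 passed the test. The median log2 fold change was -0.39. *Dtl*, part of the ubiquitin ligase that degrades the licensing factor Cdt1, was at 77.1, 85.4, 50.6 and 41.9 CPM (log2 fold change -0.84, SE 0.27). *Rrm2*, a subunit of ribonucleotide reductase, was at 66.8, 65.1, 37.4 and 48.1 CPM (-0.69, SE 0.28). In both genes the DTA+ values were below the DTA- values. *Mcm6* of the replicative helicase, at 83.5, 54.9, 71.5 and 83.8 CPM, was the gene with a fold change above 0.

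Among the 16 G2/M genes, 10 had a fold change below 0, with a median of -0.25 and 0 passing. *Birc5*, which encodes survivin, was at 159, 183, 109 and 112 CPM (-0.67, SE 0.21), with both DTA+ values lower. *Mki67*, at 181, 185, 218 and 158 CPM, and *Top2a*, a topoisomerase, at 298, 268, 336 and 261 CPM, overlapped between the genotypes. In other cells all 15 S phase and all 16 G2/M genes had a fold change below 0, with medians of -0.46 and -0.56. The share of all genes below 0 in other cells is not given here, so this is a description only.

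**Figure D3:**
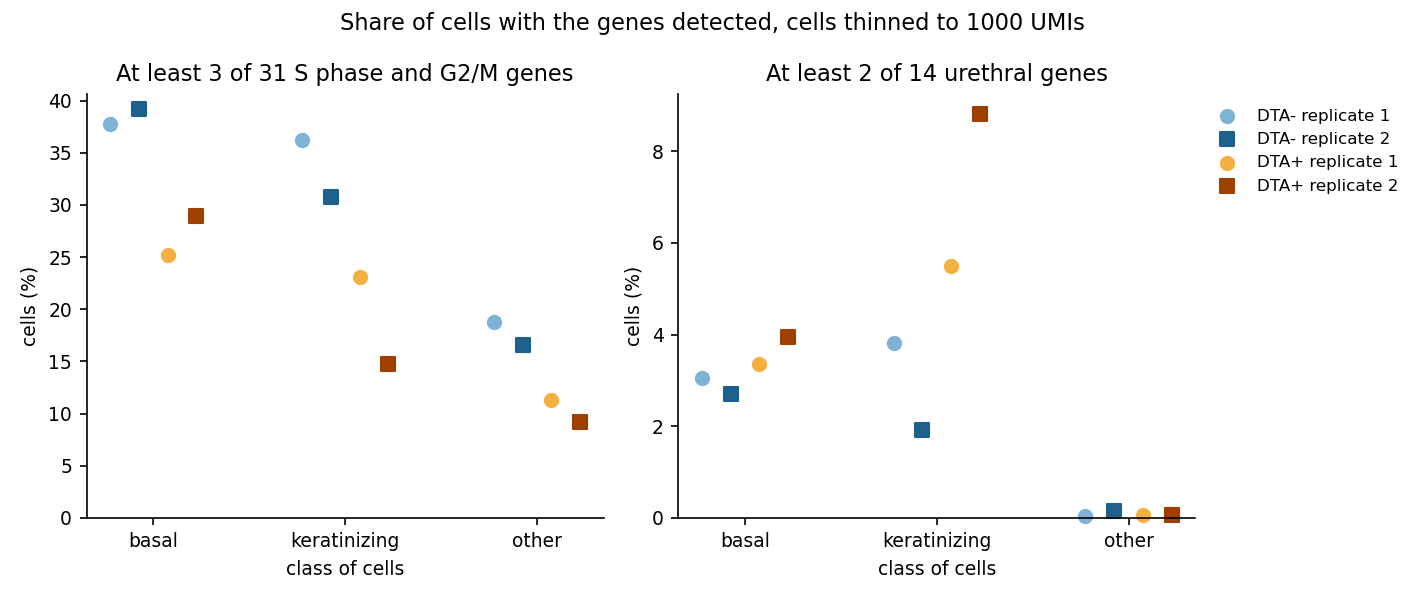
Share of cells (%) with 3 or more of 31 cell cycle genes, left, and with 2 or more of 14 urethral genes, right, in basal, keratinizing and other cells thinned to 1000 UMIs, with 1 point per library. The DTA+ points are below the DTA- points in all 3 classes on the left, from 37.8% and 39.2% to 25.2% and 28.9% in basal cells, and the basal points on the right lie between 2.70% and 3.95%.

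Between the genotypes, 8 of the 7630 genes tested passed in the basal cells, 4 higher and 4 lower in DTA+. DESeq2 also gave 8 calls, though not *Hba-a1*, *Hbb-bs* or *Nupr1*, and 558 genes had an unadjusted p under 0.05 in edgeR. Without DTA- replicate 1, 6 of these 8 genes lost the call, with adjusted p between 0.0968 and 0.145. Without the basal cells that had 2 or more of the 5 mesenchymal genes, 11 genes passed, and *Hbb-bt* lost its call (edgeR adjusted p = 0.0676). With at least 4 of the 6 markers asked for, 4 genes passed: *Neat1*, *Hba-a2*, *Hbb-bs* and, outside the 8, *Acta2*, a smooth muscle actin that was lower in DTA+ and is named here after its values were seen. *Hba-a1*, *Hbb-bt*, *Ly6d* and *Nupr1* lost their calls (edgeR adjusted p = 0.0517, 0.0577, 0.0604 and 0.0577) with fold changes of -3.98, -3.59, 2.25 and 4.89, and *tdTomato* had too few counts to be tested.

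*Neat1*, a long noncoding RNA that is retained in the nucleus and builds paraspeckles (chr19:5824708-5845478, GRCm38, minus strand), was at 95.1, 130, 350 and 379 CPM. Both DTA+ values were well above both DTA- values. The log2 fold change was 1.66 (SE 0.21, edgeR adjusted p = 0.0207), and UMIs were found in 24, 15, 49 and 27 cells. In other cells *Neat1* was at 31.8, 67.2, 65.4 and 42.1 CPM, with overlap between the genotypes, and the edgeR interaction with other cells passed (1.55, adjusted p = 2.06e-10), while the limma alternative did not call it. In keratinizing cells it was at 173, 210, 500 and 211 CPM, and that interaction did not pass (edgeR adjusted p = 1). *Neat1* was highest in the *Krt4*/*Krt19* cluster, at 1283 CPM, in cluster 5, at 476 CPM, and in cluster 3, at 331 CPM, clusters to which the libraries gave unequal numbers of cells. Without the *Krt4*/*Krt19* cluster the levels were 82.1, 96.4, 290 and 240 CPM, and without cluster 5 as well they were 86.4, 88.0, 218 and 82.2 CPM, so that the genotypes overlapped. Outside clusters 3, 5 and 7 they were 34.2, 63.1, 85.0 and 60.7 CPM and overlapped too. The call was lost when cells were thinned to 1000 UMIs (1.13, adjusted p = 0.471) and when no keratinizing marker was allowed (1.14, adjusted p = 0.513).

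*Nupr1*, a small stress-induced nuclear protein (chr7:126623249-126630861, GRCm38, minus strand), had 1, 1, 35 and 34 UMIs, or 1.28, 2.03, 38.5 and 52.7 CPM. The genotypes were far apart, but the UMIs came from 1, 1, 8 and 6 cells, and the highest single cell held 48.6% of them in DTA+ replicate 1 and 79.4% in DTA+ replicate 2. The fitted log2 fold change was 4.64 (SE 0.56, edgeR adjusted p = 0.0176). *Nupr1* passed the filter on low counts only through the DTA+ libraries, so this test is a description and supports nothing. Of all *Nupr1* UMIs, 78.9% were in the *Krt4*/*Krt19* cluster, and without it the levels were 1.3, 2.1, 7.0 and 12.5 CPM.

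*Ly6d*, a membrane-anchored protein of stratified epithelium (chr15:74762056-74763620, GRCm38, minus strand), had 4, 7, 57 and 59 UMIs, or 5.14, 14.2, 62.7 and 91.5 CPM. Both DTA+ values were above both DTA- values (log2 fold change 3.04, SE 0.44, edgeR adjusted p = 0.0342). As for *Nupr1*, 78.0% of its UMIs were in the *Krt4*/*Krt19* cluster. Without those 22 cells the levels were 4.0, 14.4, 10.5 and 16.01 CPM and the genotypes overlapped. That cluster gave 17 cells in DTA+ and 5 in DTA-.

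*tdTomato*, the reporter sequence added to the genome, had 0, 0, 38 and 20 UMIs in basal cells, and the edgeR adjusted p was 0.0304. It too passed the filter on low counts only through the DTA+ libraries, so this test is a description only. The DTA- libraries together held 0 of 1270150 UMIs, which allows up to 2.36 CPM (3 counts; counting error only), and the DTA+ libraries had 37.3 CPM, at least 15.8-fold higher. In DTA+, 42 of 195 basal cells had a UMI, and no cell had more than 5. The paper reports that *tdTomato* transcripts were leaky, with a low background in most cells, and it set a count cutoff for lineage cells. No basal cell reached that cutoff, so by it these UMIs do not mark lineage cells. In other cells of the DTA+ libraries, *tdTomato* was at 82.5 and 67.1 CPM, with a UMI in 24.2% and 23.3% of the cells, so that the basal levels, 41.8 and 31.03 CPM, were below those of the other cells. The share of basal cells with a UMI, 24.4% and 17.1%, was close to that of other cells in DTA+ replicate 1 and below it in DTA+ replicate 2. The groups may differ in the *tdTomato* allele, so a difference in allele and one in its expression cannot be told apart. *Nr5a1* had 0 UMIs in the basal cells.

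The 4 genes lower in DTA+ were all hemoglobin genes of erythroid cells. The rule capped their share of a barcode's UMIs, so they are described here and support nothing, and 2432, 1743, 1734 and 902 barcodes had been removed by that cap. *Hbb-bs* (chr7:103826534-103828096, GRCm38, minus strand) was at 6675, 3880, 464 and 72.9 CPM (log2 fold change -4.30). The fold changes of *Hba-a1*, *Hba-a2* and *Hbb-bt* were -4.23, -4.28 and -4.13. The near-identical copies of each pair share reads, so the split between *Hba-a1* and *Hba-a2* and between *Hbb-bs* and *Hbb-bt* is uncertain. UMIs of these genes were found in 95, 59, 106 and 46 cells, but the top 5 cells held 86.7%, 96.1%, 55.4% and 22.1% of them, and 8, 3, 1 and 0 cells had more than 1% hemoglobin. In the cells at or below 1%, all hemoglobin genes together were at 764, 388, 438 and 133 CPM, and the genotypes overlapped. In other cells *Hbb-bs* was at 3489, 3710, 2841 and 1281 CPM.

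**Figure D4:**
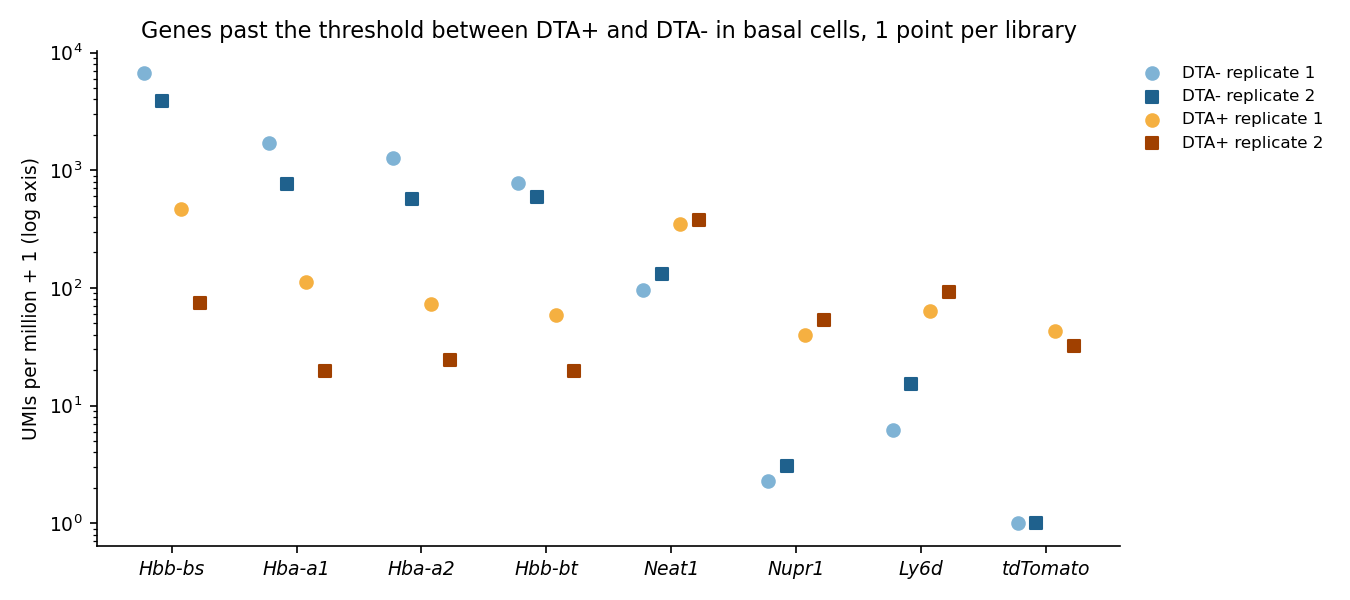
Level of the 8 genes past the threshold between DTA+ and DTA- in basal cells (CPM + 1, log axis), with 1 point per library. The 4 hemoglobin genes were lower and *Neat1*, *Nupr1*, *Ly6d* and *tdTomato* higher in both DTA+ libraries, with *tdTomato* at 0 UMIs in both DTA- libraries.

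Most cell junction genes had higher values in both DTA+ libraries, with 0 calls. Of 18 listed genes 15 were tested, 14 had a fold change above 0 (50.9% of all genes tested did), and 13 had both DTA+ libraries above both DTA- libraries (21.7% of all genes tested). The median log2 fold change was 0.79. Some genes of the list, such as *Gjb6* and *Cldn7*, had few counts in DTA- and reached the filter on low counts through the DTA+ libraries. The median and the signs are therefore a description only. *Dsg2*, a desmosomal cadherin, was at 27.0, 32.5, 60.5 and 83.8 CPM (1.23, SE 0.31). *Gjb6*, the gap junction protein connexin 30, was at 11.6, 10.2, 35.2 and 27.9 CPM (1.48, SE 0.41), and *Pkp1*, a desmosomal plaque protein, at 32.1, 42.7, 60.5 and 65.2 CPM (0.72, SE 0.29). In all 3 genes both DTA+ libraries were higher.

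Part of this pattern lay in the *Krt4*/*Krt19* cluster. *Cldn7*, a tight junction claudin, was at 12.9, 10.2, 29.7 and 48.1 CPM in all basal cells and at 7.9, 10.3, 10.5 and 10.7 CPM without that cluster. *Cldn4*, also in the urethral list, was at 15.4, 2.03, 25.3 and 140 CPM and, without the cluster, at 13.2, 2.1, 9.3 and 12.5 CPM. *Dsg2*, in contrast, was at 26.5, 30.8, 53.6 and 80.1 CPM without it. Outside that cluster *Dsg2* was highest in cluster 5, at 103 CPM, which had 4, 2, 9 and 17 cells by library. The part of cluster 5 was not tested. Over the list, 8 of the 15 genes kept both DTA+ libraries above both DTA- libraries outside the cluster, where 19.7% of all genes tested had that order.

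None of the stratified basal genes passed the test between the genotypes. Of 14 tested, 11 had a fold change above 0, with a median of 0.14 and 0 calls. *Krt17*, *Lgals7* and *Col17a1* are given above, and *Igfbp2* was at 722, 635, 451 and 408 CPM (-0.70, adjusted p = 0.32), lower in both DTA+ libraries. Of 16 basement membrane genes tested, 7 had a fold change above 0 and 9 below (median -0.08), and of 10 mesenchymal genes, 4 and 6 (median -0.01), with 0 calls in either list.

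**Figure D5:**
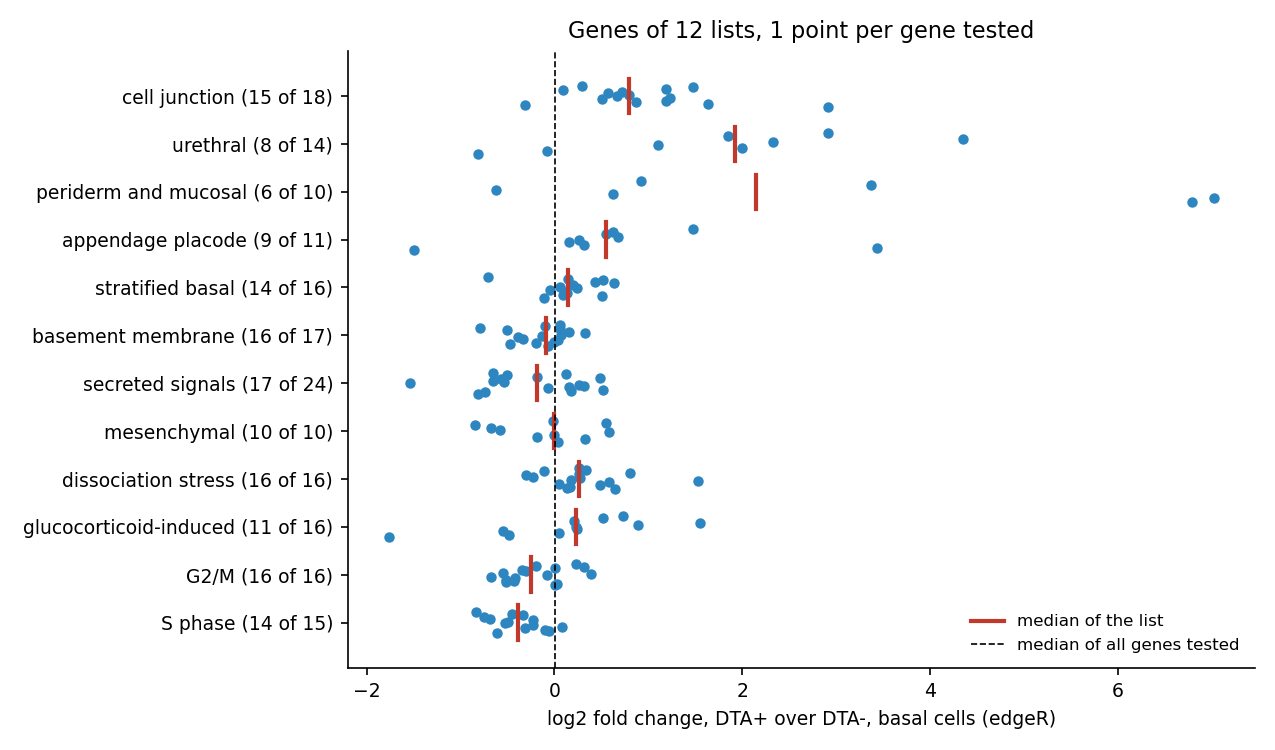
Log2 fold change of DTA+ over DTA- in basal cells for the tested genes of 12 lists, 1 point per gene, with the number tested of the number listed beside each name. Red bars mark list medians (0.79 for cell junction, 1.93 for urethral and -0.39 for S phase genes) and the dashed line the median of all genes tested, 0.01; none of the genes shown passed the threshold.

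Among 24 secreted signals, 17 were tested, 7 had a fold change above and 10 below 0, and 0 passed. *Wnt4* was the Wnt gene with the highest CPM, at 213, 260, 260 and 290 CPM, with overlap between the genotypes. *Pdgfa*, a growth factor that basal epithelium sends to the mesenchyme, was at 310, 366, 245 and 192 CPM (-0.66, SE 0.21), and *Bmp4* at 42.4, 32.5, 15.4 and 10.9 CPM (-1.54, SE 0.38). For *Pdgfa* and *Bmp4* both DTA+ values were lower. *Shh* was at 18.0, 61.0, 28.6 and 12.4 CPM and overlapped.

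Of 14 genes of the EGF family, 5 were tested and 4 had a fold change above 0. *Egfr*, the receptor, was at 37.3, 52.9, 48.4 and 52.8 CPM and overlapped between the genotypes. *Erbb3*, a receptor for neuregulins, was at 16.7, 16.3, 20.9 and 40.3 CPM, with both DTA+ values higher. Of 6 Notch genes tested, 5 had a fold change below 0, and *Notch1*, at 80.9, 95.6, 105 and 65.2 CPM, overlapped.

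Steroid responses were described because the ablation also reaches the testes and adrenals. *Srd5a1*, a 5-alpha reductase, was at 18.0, 16.3, 39.6 and 62.1 CPM (1.48, adjusted p = 0.34), higher in both DTA+ libraries, and remained so without the *Krt4*/*Krt19* cluster, at 17.2, 16.4, 37.3 and 53.4 CPM. Outside that cluster *Srd5a1* was highest in cluster 5, at 66.7 CPM, which had 4, 2, 9 and 17 cells by library. The part of cluster 5 was not tested. Of 16 glucocorticoid-induced genes, 11 were tested, 8 had a fold change above 0 and 3 below, and 0 passed. *Fkbp5*, a co-chaperone of steroid receptors, was at 41.1, 36.6, 6.60 and 18.6 CPM (-1.76, SE 0.44, adjusted p = 0.35), lower in both DTA+ libraries. *Mt2*, a metallothionein of the same list, ran the other way, at 60.4, 34.6, 162 and 135 CPM (1.56, adjusted p = 0.178).

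Of the 16 dissociation stress genes, 13 had a fold change above 0, with a median of 0.26 and 0 calls. *Atf3*, an immediate-early transcription factor, was at 59.1, 106, 317 and 157 CPM, higher in both DTA+ libraries. Its part in the other results was not tested. The hypoxia and glycolysis genes had 8 of 10 fold changes below 0 (median -0.23), and the epithelial-mesenchymal transition genes 7 of 9 (median -0.26), with 0 calls.

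The response of basal cells was then compared with that of the other classes by the interaction of class and genotype, with the library as a block. Against keratinizing cells, 5 of 8917 genes differed (0.0561%). Of these, *Hba-a1*, *Hba-a2* and *Hbb-bs* (differences of -2.64, -2.79 and -2.17 on the log2 scale) are hemoglobin genes, which the rule capped, and are a description only. The others were *Col6a3*, a matrix collagen, and *Postn*, a matrix protein of mesenchyme, with differences of 2.39 and 2.10 (edgeR adjusted p = 0.0359 and 0.00943). *Col6a3* passed in 2 of 7 alternatives (DESeq2 adjusted p = 1, limma 0.0857) and *Postn* in 4 of 7. *Col6a3* was at 92.5, 130, 153 and 68.3 CPM in basal cells, where the genotypes overlapped, and at 84.5, 55.5, 16.6 and 12.9 CPM in keratinizing cells, where both DTA+ values were lower. The mesenchymal genes *Col1a1* and *Col3a1* were also lower in DTA+ keratinizing cells (-2.04 and -1.71 on the log2 scale, both past the edgeR threshold), and their part in this result was not tested.

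Against other cells, 162 of 15936 genes differed in their response (1.02%; 88 in the direction of higher and 74 of lower in basal cells), but 65 of them overlapped between the genotypes in the basal cells and 76 had most of their basal UMIs in 1 library. limma on log ratios within libraries, added after the data were seen, called 12 genes, 11 of them among the 162. *Mt2* was at 11.3, 26.7, 4.12 and 2.01 CPM in other cells, lower in DTA+ where basal cells were higher, with a difference of 4.13. Within the basal cells it was highest in clusters 3 and 5, at 246 and 212 CPM, against 2.8 CPM in cluster 1. The libraries gave clusters 3 and 5 unequal numbers of cells, and their part in the difference was not tested. *Acsl4*, a ligase for long-chain fatty acids and a leading gene of cluster 5, was at 7.71, 12.2, 34.1 and 54.3 CPM in basal cells, both DTA+ values being higher, with a difference of 2.79. It was at 133 CPM in cluster 5 and at 0 to 22.1 CPM in the other clusters. Cluster 5 had 4, 2, 9 and 17 cells by library, and its part in the difference was not tested.

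*Slc5a7*, a choline transporter and the first leading gene of cluster 1, was at 50.1, 81.3, 39.6 and 59.0 CPM in basal cells, where the genotypes overlapped, and at 1.5, 1.70, 5.90 and 8.28 CPM in other cells, where both DTA+ values were higher. The difference was -2.49. *Elavl2*, an RNA-binding protein, was at 25.7, 16.3, 14.3 and 12.4 CPM in basal cells and at 2.41, 2.37, 10.8 and 11.2 CPM in other cells, with a difference of -2.84.

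Only cluster 1 had 20 or more cells in every library and could be tested between the genotypes. There, 0 of 2383 genes passed in edgeR (0%; 159 at an unadjusted p under 0.05), and 0 in DESeq2 (25 at an unadjusted p under 0.05). Its size bounds what this test can detect. *Slc5a7* in cluster 1 was at 140, 202, 156 and 292 CPM, *Igfbp5* at 1172, 1693, 1461 and 1850 CPM and *Sema3d*, a secreted semaphorin, at 234, 440, 250 and 365 CPM, and all 3 overlapped between the genotypes.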

How the data were processed

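Single-cell libraries of E16.5 male mouse genitalia (2 DTA- and 2 DTA+) were made with the 10x 3' kit and pooled on 1 flow cell. The authors aligned reads with Cell Ranger (4.0.0 per the labels and the file headers) to mm10 with *tdTomato* added and deposited UMI counts per gene and barcode, whole numbers without normalization; no later filter was applied.

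Counts were summed per library and class of cells and tested with edgeR 4.0.16 in R 4.3.3 (TMM, filterByExpr, quasi-likelihood test, Benjamini-Hochberg over all genes tested). Single values were tested by exact permutation over libraries. Clusters came from scanpy 1.11.5 (2000 variable genes, 20 principal components, Leiden resolution 0.6). DESeq2 1.42.0, limma 3.58.1, other cell limits, thinning, no filter and leaving out each library were alternatives. Tests were tried on simulated data. Depth per library is given with the data. The cells and gene lists were chosen with earlier results of these data known. Genes named are those of the rule and lists, the called genes, those leading class ratios and clusters, and, chosen after their values were seen, those of the interactions. Coordinates are from the GRCm38 annotation. No sequences are shown. Values of a few genes are not reported here.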

Additional observations from a re-analysis of the deposited data

Results flagged for a closer look

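Results are listed here because the response to genotype differed between the basal cells and another class of cells by a test of the difference itself (the edgeR interaction of class and genotype). Against keratinizing cells 5 genes passed, with log2 differences of 2.39 for *Col6a3*, 2.10 for *Postn*, -2.64 for *Hba-a1*, -2.79 for *Hba-a2* and -2.17 for *Hbb-bs*. Without DTA- replicate 1, 0 genes passed. Against other cells 162 genes passed. The genes named are the 11 that limma on log ratios also called. These were *Acsl4* at 2.79, *Cldn3* at 5.20, *Krt6a* at 7.80, *Mt2* at 4.13 and *Upk1a* at 6.84, higher in the DTA+ response of basal cells, and *Elavl2* at -2.84, *Slc5a7* at -2.49, *Hba-a1* at -3.46, *Hba-a2* at -3.48, *Hbb-bs* at -3.65 and *Hbb-bt* at -3.44, lower in it. The share of hemoglobin UMIs was capped by the rule that chose the cells, so the *Hba-* and *Hbb-* values in both comparisons are descriptions only. *Cldn3*, *Krt6a* and *Upk1a* had their UMIs almost wholly in the 22 cells of the *Krt4*/*Krt19* cluster. In the DTA- libraries they had 0 and 6, 0 and 1, and 1 and 0 basal UMIs. In DTA+ replicate 2, 1 cell held 43 of the 47 *Cldn3* UMIs and 1 cell 123 of the 152 *Krt6a* UMIs. The differences of these genes rest on the DTA+ libraries and support nothing. *Acsl4* and *Mt2* were highest in clusters to which the libraries gave unequal numbers of cells.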

How the results depend on the processing

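The 8 calls in basal cells became 13 with fewer than 7500 UMIs per cell, 4 with at least 4 of the 6 markers, 5 with no keratinizing marker, 20 with at least 4 markers and no cell with mesenchymal RNA (chosen after seeing the data), 5 with thinned cells, 55 with the likelihood ratio test, 158 with no filter on low counts and from 5 to 192 without 1 library (5 without DTA- replicate 1, 21 without DTA- replicate 2, 192 without DTA+ replicate 1 and 60 without DTA+ replicate 2), where a lone library is assumed to vary like the others. *Neat1* passed in 12 of 15 alternatives. *Hba-a2* passed in all 15, but the rule capped the hemoglobin share, so this is a description and supports nothing. The 5 genes against keratinizing cells became 26 with no filter, 3 with DESeq2, 3 with thinned cells and from 0 to 21 without 1 library. The 162 against other cells became 19 with DESeq2, 14 with thinned cells, 12 with limma and from 91 to 228 without 1 library. In cluster 1 the 0 calls became 5 with no filter and from 0 to 12 without 1 library. The cause of these shifts was not tested.

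With the replicate number as a block, the 8 calls became 44 and the 0 calls in cluster 1 became 18. The deviations of same-numbered libraries had a correlation of 0.00832 over 7630 genes, with 2 pairs. So few pairs cannot decide whether same-numbered libraries shared a litter or a batch. The labels give only the replicate number.

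The urethral difference of 0.772 percentage points was 6.78 without thinning, 1.12 with 1 more gene, 1.13 without cells with mesenchymal RNA, 0.208 with fewer than 7500 UMIs and from 0.479 to 1.07 without 1 library. The cell cycle difference of -11.4 points was -14.9 without thinning, -4.80 with 1 more gene, -9.71 with fewer than 7500 UMIs, where the genotypes overlapped, and from -13.3 to -9.52 without 1 library. The difference in the share of basal cells, 0.0953 points, ranged from -0.195 to 0.386 without 1 library. Other resolutions gave 5 and 9 clusters. None of the results listed changed direction past its threshold. The 2 libraries per genotype and 74 to 119 basal cells per library limit what can be detected.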
